A study of Mus musculus with 8 samples.

Results

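ATP-binding cassette (ABC) genes were followed in sorted hematopoietic stem cells (HSCs) with and without Mitol. The family was taken as every gene of the count table whose symbol is Abc, a subfamily letter from a to g, a number and, in some genes, a final a or b. This took 35 of 22065 named genes, from 7 subfamilies. The mouse annotation holds 50 such genes, and the 15 others (Abca6, Abca8a, Abca9, Abca12 to Abca16, Abcb5, Abcb11, Abcc6, Abcc8, Abcc9, Abcc12 and Abcg5) are not listed in the table, whose rows all sum to at least 11 counts over the libraries. Of the 35 members, 29 passed the filter on low counts and were tested, and the other 6 (Abca8b, Abca17, Abcc2, Abcd2, Abcg4 and Abcg8) are given by their values alone.

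The study compared bulk RNA-seq of CD150+ CD48- EPCR+ Lineage- bone marrow HSCs from C57BL/6 mice aged 8 to 10 weeks, 100 sorted cells per library. The paper's definition of long-term HSCs also requires CD117 (c-Kit). The 4 Mitol Δ/Δ libraries came from Mitol Flox/Flox; MX1-cre+ mice and the 4 control libraries from Mitol Flox/Flox; MX1-cre- mice. Both genotypes received Poly:IC and were sampled 1 week after it, so the controls carry the floxed alleles and the same interferon stimulus. The MX1-cre transgene responds to interferon and is active in many cell types, not in HSCs alone. The labels do not say whether each library is a separate animal, and the p-values measure only the spread between these libraries.

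ABC proteins bind and hydrolyse ATP through paired nucleotide-binding domains. Most of them sit in a membrane and move lipids, metals, peptides, conjugates or drugs across it, while subfamilies E and F have no membrane domain and act on ribosomes and translation. In HSC biology the family is known for dye efflux: Abcg2, and to a lesser degree the Abcb1 pumps, expel the DNA dye Hoechst and leave stem cells in the dim side population. Other members handle cholesterol (Abca1, Abcg1), mitochondrial heme synthesis (Abcb10), fatty acids in peroxisomes (Abcd3) and lysosomal cobalamin (Abcd4).

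The 2 genotypes were compared in edgeR (quasi-likelihood, p-values adjusted by Benjamini-Hochberg over 16444 genes), where 6 of 29 tested members (20.7%) were past an adjusted p of 0.05, against 8.43% of all tested genes. Abca4 and Abce1 rose in Mitol Δ/Δ HSCs, where 4.68% of all tested genes did. Abcg3, Abca5, Abcc10 and Abcc1 fell, where 3.75% of all tested genes did. The efflux pumps Abcg2, Abcb1a and Abcb1b did not pass the test. In all, 23 members were not called, and 18 of the 29 had a log2 fold change within 0.25 of 0.

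The promoters of 4 of the 6 called members are shown first, 2 that rose and 2 that fell, so that the motifs they hold can be set beside the fold changes. Each run covers 250 bases before to 50 bases after a RefSeq start (table build GRCm38.p6), read 5′ to 3′ along the gene, and was placed on GRCm39 by an exact match that occurred once on its chromosome. Capitals mark the motifs found, and all were searched on both strands. The GC box was searched as GGGCGG. The CCAAT box was searched by the letters of its name. The TATA motif was searched as TATAAA. The core of the cyclic AMP response element (CRE) was searched as TGACGT. The full CRE was searched as TGACGTCA and holds the core on both strands. An E-box was searched as CACGTG, and a GATA motif was searched as AGATAA.
Abca4 (chr3:121837859-121838158, plus strand): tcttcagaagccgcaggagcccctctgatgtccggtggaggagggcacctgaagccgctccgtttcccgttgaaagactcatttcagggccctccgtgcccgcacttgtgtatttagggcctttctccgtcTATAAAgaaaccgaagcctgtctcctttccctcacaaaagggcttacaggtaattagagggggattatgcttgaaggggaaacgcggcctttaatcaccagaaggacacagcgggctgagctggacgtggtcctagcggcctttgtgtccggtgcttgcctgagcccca
Abce1 (chr8:80438320-80438619, minus strand): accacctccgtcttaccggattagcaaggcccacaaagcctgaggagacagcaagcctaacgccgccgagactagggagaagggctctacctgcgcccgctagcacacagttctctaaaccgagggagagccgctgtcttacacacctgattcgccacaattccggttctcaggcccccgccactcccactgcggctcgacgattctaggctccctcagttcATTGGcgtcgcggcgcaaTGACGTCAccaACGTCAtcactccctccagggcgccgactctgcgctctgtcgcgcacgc
Abcg3 (chr5:105130534-105130833, minus strand): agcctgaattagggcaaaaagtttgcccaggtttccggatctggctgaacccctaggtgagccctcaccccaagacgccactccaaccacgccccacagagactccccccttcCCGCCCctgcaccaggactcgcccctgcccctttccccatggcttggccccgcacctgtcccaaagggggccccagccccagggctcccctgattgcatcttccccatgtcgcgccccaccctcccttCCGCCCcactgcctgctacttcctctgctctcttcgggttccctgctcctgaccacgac
Abca5 (chr11:110228493-110228792, minus strand): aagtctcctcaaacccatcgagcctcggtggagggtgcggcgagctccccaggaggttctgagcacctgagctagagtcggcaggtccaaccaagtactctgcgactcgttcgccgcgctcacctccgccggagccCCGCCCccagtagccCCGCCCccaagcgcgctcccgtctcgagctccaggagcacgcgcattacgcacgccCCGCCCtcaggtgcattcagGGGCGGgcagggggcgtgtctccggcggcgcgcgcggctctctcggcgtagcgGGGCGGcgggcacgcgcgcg

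The Abca4 window held TATAAA, which lies in 13.6% of all 32851 RefSeq promoters of this length. The Abce1 window held CCAAT (37.4% of all promoters) and the full CRE (1.79%), with a further CRE core (7.51%) next to it. A window of Abcg2 also held the full CRE, and windows of Abcf1 and Abcf3 held the core. None of these members was called by edgeR with all libraries. The Abcg3 and Abca5 windows held GGGCGG (35.7% of all promoters) and none of the other motifs searched. Of the 2 RefSeq starts of Abcc10, both windows held GGGCGG. Over the family, 26 members had 33 entries in the promoter table, of which 20 held a GC box, 11 a CCAAT box, 6 TATAAA, 4 an E-box (7.15% of all promoters), 4 a CRE core, 2 the full CRE and 2 AGATAA (11.2%). A match describes letters in the window and does not show a bound site. Abcb8, Abcc1, Abcc3, Abcd2, Abcd4, Abcg1 and Abcg4 were among those not matched.

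Library totals ran from 7214935 to 12398138 counts on named genes. Normalized counts below are counts divided by the median-ratio size factors of DESeq2, with mean ± SD over n = 4 libraries per group. Values "per kilobase" are normalized counts divided by the length of all annotated exons, and these alone are used to compare genes with each other. Marchf5, which encodes MITOL, had 276, 232, 308 and 281 normalized counts across Mitol Δ/Δ replicates 1 to 4 and 299, 312, 333 and 262 in control replicates 1 to 4. The groups overlapped (log2 fold change -0.15, SE 0.13, adjusted p = 0.498 by edgeR), so its total count did not mark the deletion. A count per gene does not separate the deleted exons from the others. The study's methods state that deletion of the gene was checked by PCR in these mice.

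Markers of the sorted cells differed between the groups, and the gene numbers given are of markers in the table. The summed normalized counts of 11 HSC markers ran from 28757 to 33045 in Mitol Δ/Δ and from 41242 to 48470 in control libraries, with Kit and Hlf among those lower by edgeR. Those of 6 cycling genes ran from 7354 to 15665 and from 4748 to 7254, with 5 of the 6 higher. Erythroid markers (8 genes) were 1539, 1715, 4627 and 2696 in Mitol Δ/Δ replicates 1 to 4 and 870.2 to 1292 in control libraries, with Hbb-bt and Tfrc higher and Hba-a1 and Hba-a2 under the filter. The 5 megakaryocyte markers overlapped between the groups, at 2452 to 5202 and 3267 to 4907. Of these Pf4 alone was called, lower at 13.3 ± 2.80 against 42.9 ± 16.2 normalized counts. Itga2b, Gp1ba, Gp9 and Vwf had log2 fold changes of 0.49, -0.27, -0.45 and -0.037. Markers of neutrophils (7 genes) summed to 16.9 to 36.6 and 50.1 to 88.9, B cells (2 genes) to 0 to 9.52 and 9.58 to 25.4 and T cells (2 genes) to 20.1 to 36.0 and 35.02 to 54.3. The 5 macrophage markers summed to 275 to 374 and 167 to 278, the 2 of mast cells and basophils to 3303 to 4331 and 4549 to 4847, with Gata2 lower, and the 4 of endothelial and stromal cells to 739.9 to 1451 and 814 to 984. S100a9 was at 0 in all Mitol Δ/Δ libraries. Among other progenitor markers (3 genes, 2492 to 2664 and 2113 to 2428), Cd48, a marker the sort excludes, was higher at 39.6 ± 17.4 against 11.8 ± 7.24 normalized counts. The part of these shifts in the ABC values was not tested, and in bulk libraries fewer cells of a type cannot be told apart from less RNA per cell.

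Levels per kilobase spanned more than 3 orders of magnitude. Abca2, a lipid transporter of late endosomes and lysosomes, stood highest at 722 ± 64.4 in Mitol Δ/Δ against 722 ± 45.02 in control HSCs, above 98.9% of the tested genes with a length. It was followed by Abca7 (phospholipid transport) at 354 over all libraries, Abcg1 (cholesterol efflux to high-density lipoprotein) at 323, Abcf1 (translation initiation) at 264 and Abce1 (ribosome recycling) at 207 normalized counts per kilobase. These 5 genes made up 51.4% of the summed level of the family. Abcc1, Abcg3, Abca3 and Abcb8 had ranks 7 to 10, between 189.8 and 128. Among neighbours in the order, the range of Abca2 over the 8 libraries lay wholly above that of the next gene, and the range of every other gene overlapped that of the one below it. With the longest transcript as the length, the same 10 genes were highest, and Abcc1 moved from rank 7 to rank 2.

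The HSC pumps lay lower in that order. Abcg2 had rank 13 at 93.3 normalized counts per kilobase, above 72.9% of tested genes with a length. Abcb1b had rank 25 at 16.1 and Abcb1a rank 27 at 5.20. In control HSCs the level of Abcg2 per kilobase was 6.07 times that of Abcb1b and 14.9 times that of Abcb1a. The order of Abcb1b rests on its length, since its annotated exons span 21186 bases and its longest transcript 5989, and with the latter it rose to rank 22. With the longest transcript as the length, the ratio of Abcg2 to Abcb1b in control HSCs fell to 2.73 and that of Abcg2 to Abcb1a was 19.9. At the lower end, Abcb9 (lysosomal peptide transport) and Abcb6 had 3.19 and 2.79 normalized counts per kilobase.

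**Figure D1:**
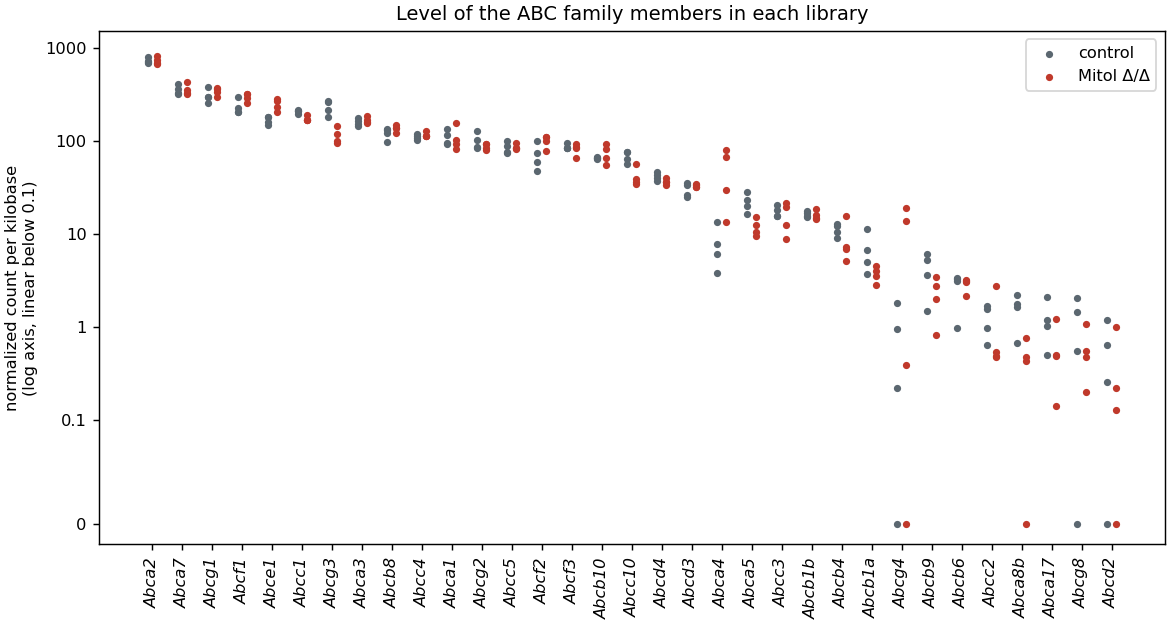
Normalized counts per kilobase of exon (log axis, linear below 0.1) of 33 of the 35 ABC family members, ordered by their mean, with 1 point per library, grey for control and red for Mitol Δ/Δ. Abca2 stands alone at the left near 722, Abcg2 is at rank 13, the groups separate in Abcg3, and Abcg4 includes libraries at 0.

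Abcg2, the pump of the side population, is found on chromosome 6 (58561505 to 58672661, GRCm39). Libraries held 870.3, 883, 799.2 and 765 normalized counts of it in Mitol Δ/Δ replicates 1 to 4 and 811, 975, 798.8 and 1198 in control replicates 1 to 4. Control replicate 4 stood above the rest and the groups overlapped. The log2 fold change was -0.21 (SE 0.13, 95% interval -0.49 to 0.072, adjusted p = 0.328 by edgeR), and without control replicate 4 it was -0.071.

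Abcb1a and Abcb1b encode the pair of drug-exporting P-glycoproteins that rodents carry side by side, on chromosome 5 at 8710022 to 8798575 and 8847994 to 8916389. Abcb1a had 17.2, 28.1, 22.0 and 24.3 normalized counts across Mitol Δ/Δ replicates 1 to 4 and 40.9, 30.9, 22.6 and 70.05 in control replicates 1 to 4. The control libraries spread widely and the groups overlapped, with 258 reads in all 8 libraries together. Its log2 fold change was -0.87 (SE 0.38, 95% interval -1.70 to -0.043, adjusted p = 0.167 by edgeR), and -0.47 without control replicate 4. Abcb1b had 339.7, 303, 394 and 312 normalized counts across Mitol Δ/Δ replicates 1 to 4 and 359, 323, 332 and 373 in control replicates 1 to 4. Here the groups covered nearly the same range, with a log2 fold change of -0.057 (SE 0.12, 95% interval -0.32 to 0.21, adjusted p = 0.812 by edgeR).

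The counts of the Abcb1 pair are not independent of each other. Their coding sequences are identical at 88.1% of aligned bases, and the longest identical stretch runs for 338 bases, from 1357 to 1694 of the Abcb1a coding sequence. It holds the ABC signature motif of the first nucleotide-binding domain. The codons of that motif are in capitals in the following window, from base 1549 to 1623, which is as long as 1 sequencing read of 75 bases and the same in both genes.
Abcb1a and Abcb1b: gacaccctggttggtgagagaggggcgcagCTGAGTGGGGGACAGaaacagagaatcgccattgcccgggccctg
A read from this window cannot be assigned to one of the genes. Of all 75-base windows, 15.2% in Abcb1a and 4.48% in Abcb1b also occur in another gene. Part of these windows are shared between Abcb1a and Abcb1b and part with genes outside the pair, and how the authors' counting treated such reads is not given in the sources used here. The sum of the pair was 360.1 ± 38.6 normalized counts in Mitol Δ/Δ against 388 ± 42.5 in control HSCs, and its libraries overlapped.

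**Figure D2:**
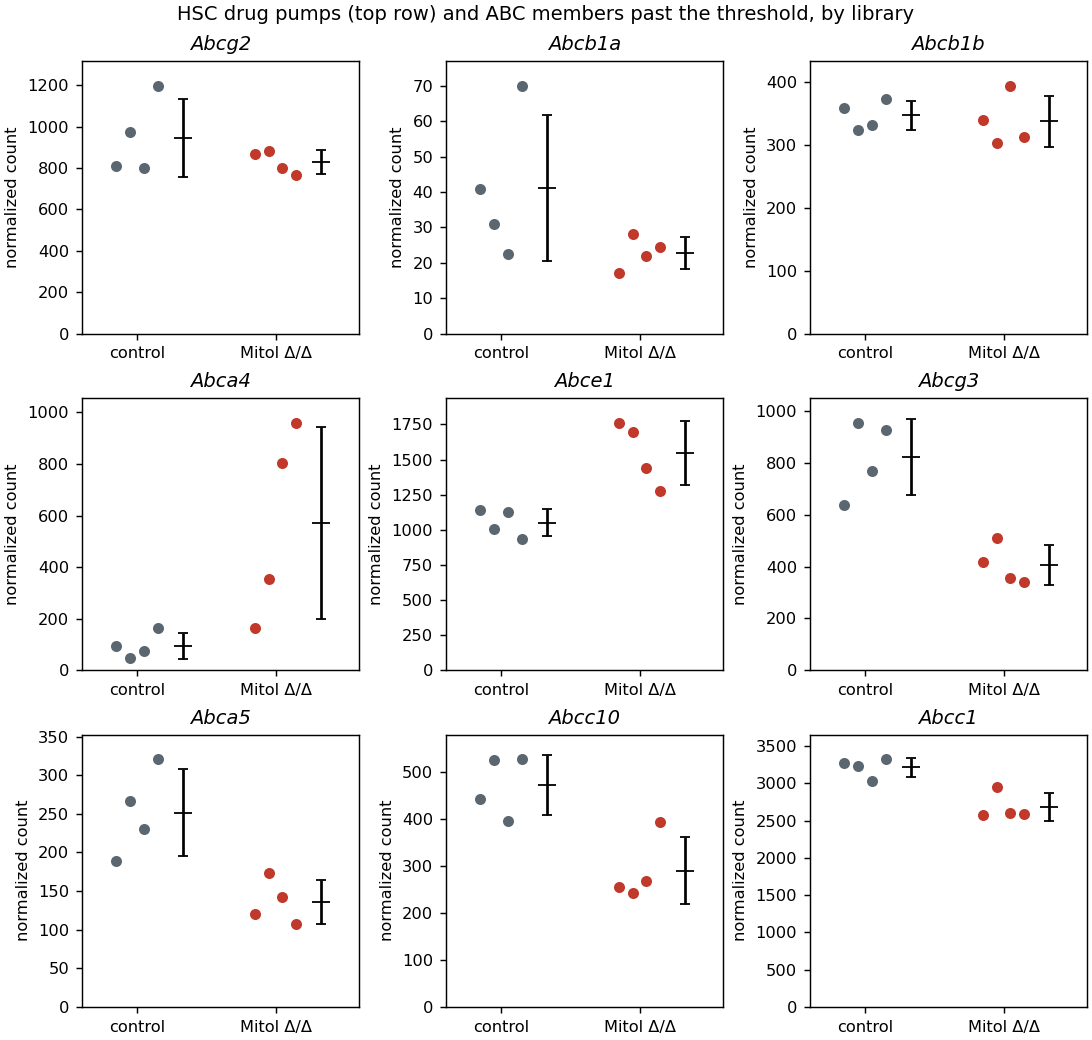
Normalized counts of Abcg2, Abcb1a and Abcb1b (top row) and of the 6 members past the threshold, 1 point per library in the order of replicates 1 to 4, with the mean and SD at the right of each group. The top row overlaps between control and Mitol Δ/Δ HSCs, and Abca4 in Mitol Δ/Δ HSCs spreads from 163 to 961.

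Subfamily A holds the full-length lipid transporters. Of 16 annotated genes 8 were in the table and 6 tested. Of these 1 rose and 1 fell, where 4.68% and 3.75% of all tested genes did. Counts in subfamilies this small are given as description. The subfamily's median log2 fold change was -0.010. Abca4, known as the retinoid flippase of photoreceptors, lies on chromosome 3 from 121838092 to 121973772. It had 162.8, 355, 805 and 961 normalized counts across Mitol Δ/Δ replicates 1 to 4 and 93.6, 45.8, 73.5 and 162.5 in control replicates 1 to 4. Mitol Δ/Δ replicates 3 and 4 were far above all others, while Mitol Δ/Δ replicate 1 and control replicate 4 were nearly equal, and on CPM with TMM factors they overlapped at 17.1 and 17.5. The log2 fold change was 2.57 (SE 0.51, 95% interval 1.47 to 3.68, adjusted p = 0.0156 by edgeR), the largest among the 29 tested members. Without Mitol Δ/Δ replicates 3 and 4 together, left out after the values were seen, it was 1.45 with an adjusted p of 0.0360, and without control replicate 2 it was 2.35 with an adjusted p of 0.0522. With limma-voom the adjusted p was 0.0571. Erythroid markers were also highest in Mitol Δ/Δ replicates 3 and 4, and their part in the Abca4 values was not tested.

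Abca5, a transporter of late endosomes and lysosomes, lies on chromosome 11 from 110160195 to 110228542. It had 119.8, 174, 142 and 108 normalized counts across Mitol Δ/Δ replicates 1 to 4 and 189, 267, 229.8 and 321 in control replicates 1 to 4. Every Mitol Δ/Δ library was below every control library, and the log2 fold change was -0.91 (SE 0.20, adjusted p = 0.0207 by edgeR). The adjusted p was 0.0571 without Mitol Δ/Δ replicate 1, 0.0530 without Mitol Δ/Δ replicate 3, 0.0646 without control replicate 2 and 0.0615 without control replicate 4. The abundant members of the subfamily had small differences: log2 fold changes were -0.018 for Abca2, whose libraries ran from 6191 to 7502 normalized counts, -0.036 for Abca1, which passes cholesterol to apolipoprotein A-I, and 0.048 for Abca3, the lipid pump of lamellar bodies, none past the test (adjusted p of at least 0.778 by edgeR). Abca7 had 2397 to 3226 normalized counts in Mitol Δ/Δ and 2401 to 3027 in control libraries (adjusted p = 0.993 by edgeR). Around Abca1 and Abcg1, 0 of 17 tested genes of cholesterol efflux and liver X receptor signalling were past the threshold in either direction by edgeR, where 4 had an unadjusted p under 0.05, and DESeq2 called 3, Nr1h3, Lpcat3 and Smpdl3a. The share that edgeR called among all tested genes was 8.43%. The list's median log2 fold change was 0.044, with Scd2, a fatty acid desaturase, the most abundant of them at a log2 fold change of -0.010.

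Subfamily B joins the P-glycoproteins, peptide pumps and mitochondrial transporters. All 8 members in the table were tested, and 0 were past the threshold by edgeR, DESeq2 or limma-voom, with 1, Abcb1a, at an unadjusted p under 0.05 in edgeR. Among all tested genes, 8.43% were called by edgeR. The subfamily's median log2 fold change was 0.0017. Abcb10, tied to heme synthesis, had 286 to 476 normalized counts in Mitol Δ/Δ and 327 to 342 in control libraries, a log2 fold change of 0.16 (adjusted p = 0.552 by edgeR). Here the control libraries were tight and Mitol Δ/Δ replicates 3 and 4 the highest, as were the erythroid marker sums, whose part in the Abcb10 values was not tested. Abcb8, the most abundant member of the subfamily per kilobase, had 905 ± 72.2 and 803 ± 106 normalized counts in the Mitol Δ/Δ and control groups (log2 fold change 0.16, adjusted p = 0.397 by edgeR).

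Of the rarer members of subfamily B, Abcb4, the bile phospholipid pump, had 69.6, 92.4, 97.9 and 213 normalized counts over the Mitol Δ/Δ libraries and 123 to 172 over the control libraries. Only Mitol Δ/Δ replicate 4 lay above the controls. The log2 fold change was -0.37 with an adjusted p of 0.462 by edgeR, and without that library the log2 fold change was -0.79 with an adjusted p of 0.0244. The other fits that left out 1 library did not call Abcb4. Abcb9 had 7.83 to 33.3 and 14.1 to 58.4 normalized counts, a log2 fold change of -0.89 with an SE of 0.49 (adjusted p = 0.273 by edgeR). Abcb6, with 125 reads in all, cannot be read from these counts, since 60.4% of its exon bases are also exons of other genes, among them Zfand2b on the other strand.

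The mitochondrial iron, heme and iron-sulfur genes that work beside subfamily B were read from a list of 29, of which 28 were tested. By edgeR 5 of the 28 were past the threshold, all higher, where 4.68% of all tested genes were higher. Among the 5 were Cpox, an enzyme of the heme pathway, Tmem14c, a porphyrinogen carrier, and Hmox1, which degrades heme. Hspa9, the mitochondrial chaperone of cluster assembly and the most abundant of the list, was called too. Hmox1 had 287 ± 89.2 normalized counts in Mitol Δ/Δ against 96.2 ± 47.5 in control HSCs, and its log2 fold change was 1.54 (SE 0.31, adjusted p = 0.0158 by edgeR). Log2 fold changes were 0.53 for Cpox, 0.80 for Tmem14c and 0.47 for Hspa9. The rate-limiting synthases Alas1 and Alas2 had -0.060 and 0.073, and Fech, which inserts the iron, had -0.036, none past the test. The list's median log2 fold change was 0.17, against -0.020 over all tested genes. Erythroid markers, summed, were also higher in every Mitol Δ/Δ library than in any control library, and their part in these values was not tested. With DESeq2, Alad, Flvcr1 and Glrx5 were called as well.

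Subfamily C, the multidrug resistance proteins that export conjugates of glutathione and other organic anions, had 6 members in the table and 5 tested. 2 fell and 0 rose, where 3.75% and 4.68% of all tested genes did, and the subfamily's median log2 fold change was -0.19. Abcc10, a broad drug pump, lies on chromosome 17 from 46614147 to 46639278. It had 254, 243, 269 and 394.6 normalized counts across Mitol Δ/Δ replicates 1 to 4 and 443, 525, 395.6 and 527 in control replicates 1 to 4. The groups met at Mitol Δ/Δ replicate 4 and control replicate 3 without crossing, and the log2 fold change was -0.72 (SE 0.17, adjusted p = 0.0254 by edgeR). The adjusted p was 0.0708, 0.0710 and 0.0688 without Mitol Δ/Δ replicates 1, 2 and 3 in turn, and 0.0779 and 0.0717 without control replicates 2 and 4. With Mitol Δ/Δ replicate 4 left out it was 0.00267.

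Abcc1, the exporter of leukotriene C4 and glutathione conjugates, lies on chromosome 16 from 14179311 to 14293601. It had 2581, 2957, 2607 and 2588 normalized counts across Mitol Δ/Δ replicates 1 to 4 and 3275, 3227, 3030.3 and 3324 in control replicates 1 to 4. All Mitol Δ/Δ libraries were below all controls, and the log2 fold change was -0.28 (SE 0.078, adjusted p = 0.0468 by edgeR). This call was lost in each of the 8 fits that left out 1 library, with adjusted p from 0.0587 to 0.134 and log2 fold changes from -0.32 to -0.24, and with RLE factors (adjusted p = 0.0560) or no filter (adjusted p = 0.0831). Abcc4, which exports cyclic nucleotides, Abcc5 and Abcc3 had log2 fold changes of 0.060, 0.014 and -0.19, none past the test. Of 18 tested genes of glutathione and leukotriene metabolism, 1 was past the threshold by edgeR and limma-voom, 3 (Gclm, Gsr and Mgst2) by DESeq2, and 6 had an unadjusted p under 0.05 in edgeR. Over all tested genes, edgeR called 8.43%. The gene called by edgeR, Mgst2, a microsomal glutathione transferase that can form leukotriene C4, fell from 188 ± 27.3 to 86.6 ± 28.3 normalized counts (log2 fold change -1.14, SE 0.24, adjusted p = 0.0179 by edgeR). The list's median log2 fold change was 0.21, and its most abundant gene, Gstm1, had -0.38 (adjusted p = 0.111 by edgeR).

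Subfamily D, the half-transporters of peroxisomes and lysosomes, had 4 members in the table, 3 of them tested. By edgeR, DESeq2 and limma-voom 0 were past the threshold, and 1 had an unadjusted p under 0.05 in edgeR. Abcd4, the lysosomal member, and Abcd3, a peroxisomal one, had log2 fold changes of -0.21 (adjusted p = 0.273) and 0.12 (adjusted p = 0.661) by edgeR. Of 16 tested genes of peroxisomal fatty acid oxidation, 1 was past the threshold by edgeR and limma-voom, 2 (Hsd17b4 and Scp2) by DESeq2, and 4 had an unadjusted p under 0.05 in edgeR. Over all tested genes, edgeR called 8.43%. The gene called by edgeR was Scp2, which encodes a peroxisomal thiolase and a sterol carrier protein, higher at 383 ± 28.8 against 253 ± 34.9 normalized counts (log2 fold change 0.58, adjusted p = 0.0220 by edgeR). Catalase, the most abundant of that list, had a log2 fold change of -0.11, and the median of the list was -0.091. Of 5 tested cobalamin genes 0 were past the threshold by edgeR and 1, Mmachc, by DESeq2 and at an unadjusted p under 0.05 in edgeR, with Mtr, the methionine synthase, the most abundant at a log2 fold change of -0.092.

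Subfamilies E and F act in translation. Abce1, which splits ribosomes after termination, lies on chromosome 8 from 80410070 to 80438369. It had 1763, 1698, 1443 and 1278 normalized counts across Mitol Δ/Δ replicates 1 to 4 and 1138, 1008, 1127 and 932 in control replicates 1 to 4. Every Mitol Δ/Δ library was above every control library, and the log2 fold change was 0.54 (SE 0.11, adjusted p = 0.0183 by edgeR). The adjusted p was 0.0503 without Mitol Δ/Δ replicate 1, 0.0531 without Mitol Δ/Δ replicate 2, 0.0630 without control replicate 2 and 0.0523 without control replicate 4. The order of the Mitol Δ/Δ libraries in Abce1 was that of the summed cycling markers, 15665, 15449.7, 11618 and 7354 in replicates 1 to 4, and the part of cycling in the Abce1 values was not tested.

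Of the 3 members of subfamily F, 0 were past the threshold by edgeR, DESeq2 or limma-voom, and 2, Abcf1 and Abcf2, had an unadjusted p under 0.05 in edgeR. Abcf1, which binds initiation factor eIF2 and ribosomes, had 1203 to 1510 normalized counts in Mitol Δ/Δ and 961 to 1383 in control libraries, a log2 fold change of 0.32 (adjusted p = 0.121 by edgeR). Control replicate 1 lay within the Mitol Δ/Δ range, and with it left out the log2 fold change was 0.47 with an adjusted p of 0.0296 by edgeR. Without Mitol Δ/Δ replicate 4 the adjusted p was 0.0488. In the other fits that left out 1 library the adjusted p ran from 0.174 to 0.280, with log2 fold changes down to 0.27. Abcf2 had 438 to 619 and 269 to 554 normalized counts (log2 fold change 0.49, SE 0.20, adjusted p = 0.132 by edgeR). Control replicate 1 was again the highest control, and without it the log2 fold change was 0.72 with an adjusted p of 0.0348. The other fits that left out 1 library did not call Abcf2. Abcf3 had a log2 fold change of -0.11. Of 21 tested genes of ribosome recycling and stress translation, 3 were higher and 1 lower by edgeR. Of all tested genes, 4.68% were higher and 3.75% lower. Those higher were Etf1 (log2 fold change 0.57) and Gspt1 (0.48), the pair of termination factors that act before Abce1, and Eif2b5 (0.38), a subunit of the eIF2 exchange factor. The list's median log2 fold change was 0.25. Pelo and Hbs1l, which rescue stalled ribosomes with Abce1, had log2 fold changes of 0.51 (adjusted p = 0.311) and 0.25 (adjusted p = 0.208) by edgeR.

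Subfamily G, the reverse half-transporters, had 5 members in the table and 3 tested. Of these 1 fell, where 3.75% of all tested genes did. Abcg3, a rodent relative of Abcg2, lies on chromosome 5 from 105082923 to 105130584. It had 418, 511, 356 and 339 normalized counts across Mitol Δ/Δ replicates 1 to 4 and 638, 956, 769 and 926 in control replicates 1 to 4. The highest Mitol Δ/Δ library was below the lowest control library, and the mean was 406 ± 78.01 against 822 ± 147. The log2 fold change was -1.04 (SE 0.16, 95% interval -1.38 to -0.70, adjusted p = 0.00568 by edgeR), and the call held in 8 of 8 fits that left out 1 library, with adjusted p from 0.00421 to 0.0290. Its exons overlap no other annotated gene and no 75-base window of it occurs elsewhere among the transcripts. Abcg1 had 2279 to 2844 and 1978 to 2926 normalized counts in the Mitol Δ/Δ and control libraries, a log2 fold change of 0.12 (adjusted p = 0.547 by edgeR).

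Abcg4, a sterol transporter known from the nervous system and megakaryocyte progenitors, did not pass the filter. It had 2.35, 0, 81.5 and 112 normalized counts across Mitol Δ/Δ replicates 1 to 4 and 1.32, 0, 5.65 and 10.8 in control replicates 1 to 4. As with Abca4, Mitol Δ/Δ replicates 3 and 4 stood above all others. These were also the Mitol Δ/Δ libraries with the highest sums of megakaryocyte markers (4427 and 5202). Control replicate 2, where Abcg4 was at 0, had a megakaryocyte sum of 4907, above that of Mitol Δ/Δ replicate 3. The part of these markers in the Abcg4 values was not tested. Fitted without the filter, its log2 fold change was 3.33 with an adjusted p of 0.118 by edgeR. The other 5 members under the filter, Abca8b, Abca17, Abcc2, Abcd2 and Abcg8, had at most 23.8 normalized counts in any library, and Abca8b was at 0 to 7.41 in Mitol Δ/Δ and 6.59 to 21.6 in control libraries.

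**Figure D3:**
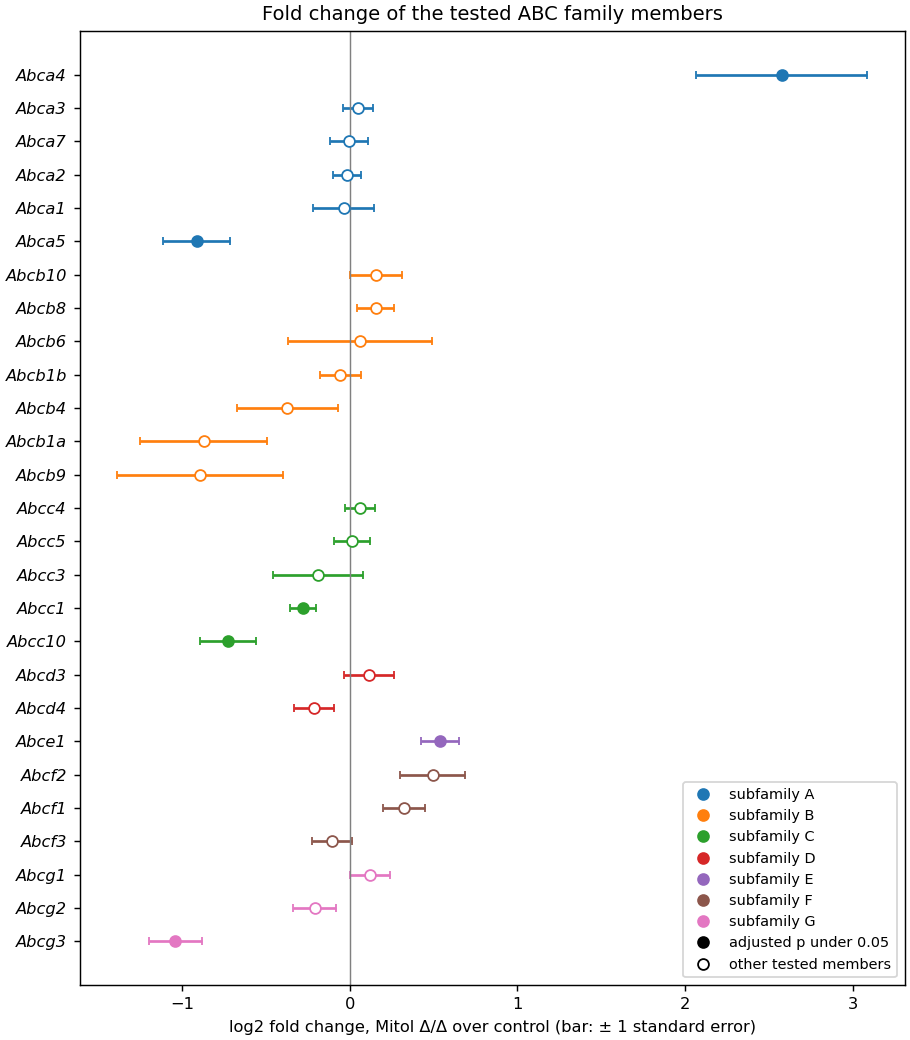
Log2 fold change of Mitol Δ/Δ over control HSCs by edgeR for 27 of the 29 tested members, grouped and coloured by subfamily, with bars of 1 SE and filled points for an adjusted p under 0.05. Abca4 lies far to the right at 2.57 with a wide bar, Abcg3 is the lowest at -1.04, and most open points lie close to 0.

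The family's fold changes lay on both sides of 0. Of the 29 tested members 13 had a positive and 16 a negative log2 fold change, with a median of -0.018 against -0.020 over all tested genes. The median absolute log2 fold change was 0.21 against 0.25 over all tested genes. The groups did not overlap in 7 members, the 6 called ones and 1 other, which is 24.1% of the tested members, against 15.4% of all tested genes. These shares describe the family and carry no test.

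Summed per kilobase over each subfamily, with no test, the Mitol Δ/Δ libraries lay below the control libraries in subfamilies C (414 to 465 against 478 to 494), D (242 to 270.1 against 282 to 296) and G (534 to 564 against 597 to 671). They lay above in E, which is Abce1 alone (203 to 281 against 148 to 181), and narrowly in B (282 to 312 against 254 to 281), where the separation was lost with the longest transcript as the length or on CPM. Subfamilies A (1351 to 1528 against 1329 to 1455) and F (426 to 516 against 337 to 478) overlapped. Subfamily A made up 38.3% of the family's summed level, G 16.3%, C 12.6%, F 11.9%, B 7.67%, D 7.50% and E 5.68%. Within G, Abcg3 had 114 ± 22.0 normalized counts per kilobase in Mitol Δ/Δ against 232 ± 41.5 in control HSCs, and within C, Abcc1 had 173 ± 11.8 and 207 ± 8.27.

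**Figure D4:**
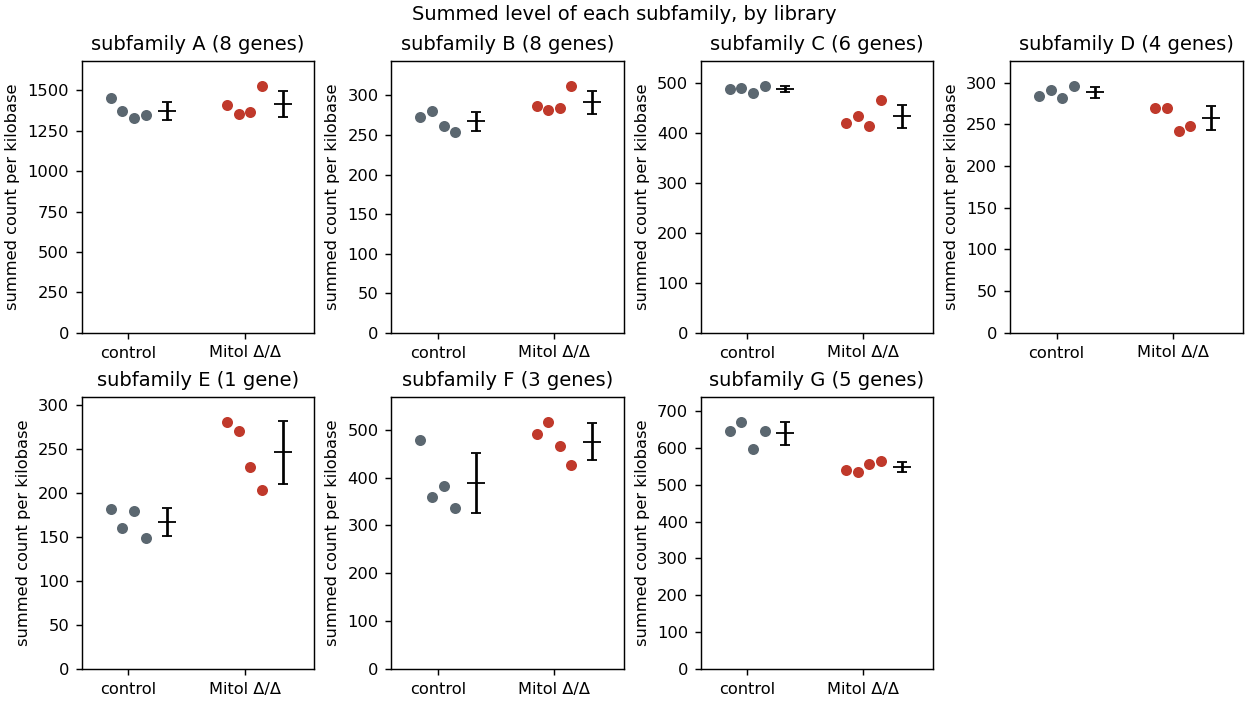
Summed normalized counts per kilobase of each ABC subfamily, 1 point per library in the order of replicates 1 to 4, with the mean and SD at the right of each group. Subfamilies C, D and G are lower and E higher in every Mitol Δ/Δ library, while A and F overlap.

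The 3 ABC genes that carry other symbols and so fall outside the pattern were read as well. Tap1 and Tap2, the peptide transporter of antigen presentation, had log2 fold changes of -0.13 (adjusted p = 0.341) and -0.10 (adjusted p = 0.555) by edgeR, and Cftr, the chloride channel, 0.040. By edgeR and DESeq2 0 of these 3 were past the threshold, and 0 had an unadjusted p under 0.05. Of 12 tested genes named as regulators of efflux pumps, 2 were higher and 0 lower by edgeR. Of all tested genes, 4.68% were higher and 3.75% lower. For these regulators DESeq2 called 2 and limma-voom 2, and 3 had an unadjusted p under 0.05 in edgeR. Pim1, a kinase reported to act on Abcg2, had 3175 ± 756 normalized counts in Mitol Δ/Δ against 1599 ± 246 in control HSCs (log2 fold change 0.97, SE 0.16, adjusted p = 0.00836 by edgeR), and the log2 fold change of Trp53 was 0.31 (adjusted p = 0.0423 by edgeR). Hif1a, Ahr and Nfe2l2, which act on the Abcg2 promoter, had log2 fold changes of 0.16, -0.069 and -0.042 and did not pass the test. Over all 8 lists of partner genes, 120 were tested, of which 11 were higher and 2 lower, 10.8% in all against 8.43% of all tested genes.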

How the data were processed

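RNA-seq covered 8 libraries of 100 sorted HSCs, 4 per genotype. Per the labels and the study's methods, the reads (single-end, 75 bp) were mapped by the authors to mm39 using STAR, then passed through samtools and subread, and the deposited values are raw counts per gene. Annotation and strand setting are not given in the sources used here, so a gene and its antisense partner may share reads. Of 23094 rows, 1029 without a symbol (0.335% to 0.467% of a library) stayed out. Tests used edgeR 4.0.16 (quasi-likelihood, TMM, its default filter, Benjamini-Hochberg) in R 4.3.3. The alternatives were DESeq2 1.42.0, limma 3.58.1 (voom), other scalings, filters and thresholds, a replicate block and each library left out. The SE was the size of the unshrunk log2 fold change divided by the root of F. The printed log2 fold changes are those edgeR reports, which it draws slightly towards 0. Lengths, positions and exon overlaps came from GENCODE on GRCm39. Fits were tested on simulated counts. Genes were named by rule: the HSC pumps, called or non-overlapping members, the most abundant member of each subfamily, the 5 largest changes, and called or most abundant partner genes; further members, partners and markers were added to complete each subfamily. The members and lists were chosen with earlier results of these data known. Library totals were 7214935 to 12398138, and no molecular identifiers were used, so reads are not molecules and intervals cover the spread between libraries only. Values of a few genes, among them members, partners and markers, are not reported here, though sums and counts include them.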

Additional observations from a re-analysis of the deposited data

Results flagged for a closer look

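Among 15 named members in 2 groups of 4 libraries each, 30 groups were examined for a library far from the others, and 1 stood out. In Abcc1, Mitol Δ/Δ replicate 2 had 2957 normalized counts, and the next library of that group had 2607 (Dixon's ratio of gap to range 0.931). Chance marks about 1 in 20 groups in this way. Even this library stayed below the lowest control library at 3030.3.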

How the results depend on the processing

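All 6 called members were past the threshold with upper-quartile factors, with the stricter filter (at least 50 counts in 4 libraries) and with DESeq2. With RLE factors and with no filter Abcc1 was lost (adjusted p = 0.0560 and 0.0831 by edgeR), and with limma-voom Abca4 was lost (adjusted p = 0.0571), which left 1 member higher. The counts of members called were between 1 and 7 in the 8 fits that each left out 1 library, 0 to 4 higher and 1 to 4 lower. Without control replicate 2 Abcg3 alone was called. Without Mitol Δ/Δ replicate 1 or control replicate 4 the called members were Abca4 and Abcg3. The cause was not tested, and each of these fits also had 1 library fewer. The sign of Abca2, close to 0, changed with no filter (0.0066) and DESeq2 (0.0011), and without Mitol Δ/Δ replicates 3 and 4 together (0.096). It ran from -0.072 to 0.041 with 1 library left out, above 0 without Mitol Δ/Δ replicate 3 (0.025), Mitol Δ/Δ replicate 4 (0.037) or control replicate 1 (0.041).

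Over all genes, DESeq2 called 2315 (1350.0 higher, 965 lower) and an adjusted p under 0.10 took 2585 (1395 higher, 1190.0 lower). Without Mitol Δ/Δ replicates 3 and 4, an alternative chosen after seeing the data, the count was 2422 (1485 higher, 937 lower). With 1 library left out it ran from 359 to 2501 (167 to 1482 higher, 192 to 1019 lower), lowest without control replicate 2 and highest without Mitol Δ/Δ replicate 4. The family's median log2 fold change ran from -0.037 to 0.036 over those fits. The subfamily sums under other lengths and scalings were also added after seeing the data.

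Samples of the 2 groups share replicate numbers, but same-numbered libraries deviated together only weakly (correlations 0.078, -0.067, 0.046 and 0.064), so the numbers were not taken as pairs. With the replicate block 6 members were called, 5 of them shared: Abcc1 was lost (adjusted p = 0.0702) and Abcf2 gained (adjusted p = 0.0394 by edgeR).

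The 8 libraries of 100 cells limit what can be seen in rare members such as Abcb1a and Abcg4.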
